A study of Mus musculus with 30 samples.

Results

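The RAS, RAL and RAP small GTPases examined here are 9 genes, *Nras*, *Hras*, *Rras*, *Rras2*, *Rala*, *Ralb*, *Rap1a*, *Rap1b* and *Rap2c*, which were listed by name. All 9 were found among the 13904 genes with an FPKM (reads scaled to transcript length and library depth), and 8 of them, all but *Ralb*, among the 5806 transcripts with an mRNA half-life. The values come from mouse spermatogonial stem cell (SSC) lines, which were derived from testes of postnatal day 7 males on a mixed C57BL/6 and DBA/2J background and grown on fibroblast feeders with GDNF, FGF2, EGF and LIF. Line 4 carried 1 copy of a *Nanos2* allele with an N-terminal V5-Myc-PreScission-His-EGFP tag (Nanos2 TAG/+) and line 5 carried that allele on both chromosomes (Nanos2 TAG/TAG). The tag does not delete *Nanos2*, so neither line lacks the protein, and each genotype was represented by a single line. RNA-seq gave 1 library for each line, and SLAM-seq, which follows the loss of a uridine analogue from labelled mRNA during a chase, gave 1 half-life for each transcript and line, fitted over 12 libraries and 6 chase times.

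Small GTPases switch between a GTP-bound form that engages effectors and a GDP-bound form that does not. Exchange factors load GTP, and GTPase-activating proteins promote its hydrolysis. RAS proteins relay signals from receptor tyrosine kinases to the RAF-MEK-ERK and PI3K-AKT pathways, RAL proteins act through the exocyst, which tethers vesicles to the plasma membrane, and RAP proteins control integrins and cell junctions. In SSCs, GDNF acts through the receptor tyrosine kinase RET and its co-receptor GFRA1, and FGF2 and EGF also act through receptor tyrosine kinases that lie upstream of RAS. In each subfamily the switch domain is nearly the same among members, while the C-terminal tail, where lipids are attached, differs.

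NANOS2 is an RNA-binding protein, and the study derived for it the consensus AUNAANU with G or U at the third base and A or U at the sixth. These letters were searched on the sense strand of the 3′ UTR of 1 coding transcript per gene (GRCm38, GENCODE M21 annotation). Of the 9 members, 5 held at least 1 match, with 14 matches in all, and 38.1% of 13170 annotated 3′ UTRs did so. A match is a description of the letters and not a site of binding, and their absence says nothing of whether NANOS2 binds a transcript. *Rap2c* held 5 matches, *Nras* 3, *Rap1a* 3, *Rala* 2 and *Hras* 1, whereas *Rras*, *Rras2*, *Ralb* and *Rap1b* held none. Longer 3′ UTRs hold such letters more often, and among 3′ UTRs within 20% of the same length the share with a match was 75.5% for *Nras*, 67.0% for *Rap2c*, 53.7% for *Hras*, 48.8% for *Rala* and 47.8% for *Rap1a*. For the members without a match it was 50.9% for *Rap1b*, 43.0% for *Ralb*, 42.9% for *Rras2* and 13.0% for *Rras*. *Rala* and *Ralb*, and *Rap1a* and *Rap1b*, were thus each split between a paralog with the letters and a paralog without them.
The following windows of 27 bases show the matches in the paralog pairs and the *Rap2c* match that lies 23 bases from the annotated end of its transcript; they are written 5′ to 3′ as RNA, with the matching letters in capitals.
Nras, 576 bases after the stop codon (chr3:103064753-103064779, plus strand): acugcaugcaAUUAAAUccaacauuca
Nras, 941 bases after the stop codon (chr3:103065118-103065144, plus strand): uuccauuauaAUGAAUUgguucauacc
Nras, 2245 bases after the stop codon (chr3:103066422-103066448, plus strand): uaaauaguuuAUUAAUUaaacuccagu
Hras, 590 bases after the stop codon (chr7:141190595-141190621, minus strand): ucugggauccAUGAAAUacagccucaa
Rala, 132 bases after the stop codon (chr13:17882231-17882257, minus strand): cacuaaaagcAUGAAUUggaacugcac
Rala, 543 bases after the stop codon (chr13:17881820-17881846, minus strand): gaaucugcauAUUAAUUaccugaugau
Rap1a, 421 bases after the stop codon (chr3:105728557-105728583, minus strand): gauauagauuAUGAAAUcuccucucaa
Rap1a, 667 bases after the stop codon (chr3:105728311-105728337, minus strand): uuacugucagAUUAAAUuacagcuuuu
Rap1a, 691 bases after the stop codon (chr3:105728287-105728313, minus strand): uuuauggaugAUUAAAUuuuaguacau
Rap2c, 2844 bases after the stop codon (chrX:51003925-51003951, minus strand): uuaacauuuaAUUAAAUguugauauau

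All of these windows lie in the last exon of their gene. The matches of *Rap1a* at 667 and 691 bases carry the same 7 letters and stand 24 bases apart. *Rala* holds the match closest to a stop codon of all 14.

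The libraries summed to 10977831 (TAG/+) and 11656606 (TAG/TAG) recovered reads, and *Nanos2* was at 27.5 and 23.8 FPKM. Of 17 spermatogonial markers 16 were listed, among them *Gfra1* (56.2 and 111.0 FPKM), *Ret* (73.2 and 180.7) and *Zbtb16* (106.8 and 101.7). In the TAG/TAG library 4 were over 2-fold higher, with the largest differences in *Bcl6b* (23.1 and 224.8) and *Etv5* (45.98 and 178.1). By any amount 7 of the 16 were lower there, and the median log2 difference was 0.05. Over all genes with a mean FPKM of at least 1, 11.7% were over 2-fold higher and 8.67% over 2-fold lower. Of 18 fibroblast markers 16 were listed, and their summed level was 221.0 FPKM in the TAG/+ library and 362.4 in the TAG/TAG library. In the latter 4 were over 2-fold higher and 3 were lower by any amount. All 5 listed testis somatic cell markers of 12 were over 2-fold higher there as well (summed 12.1 and 50.9 FPKM, *Wt1* 2.51 and 19.6). Of 7 listed differentiation and meiosis markers of 10 (summed 508.2 and 315.8 FPKM) 5 were lower by any amount and 2 over 2-fold lower. Their part in the differences given here was not tested, and in bulk RNA fewer cells of a type cannot be told apart from less RNA per cell. The labels name QIAzol for the TAG/+ library and Trizol for the TAG/TAG library, so genotype, line and reagent cannot be told apart. With 1 library per line no test of the lines was possible, and the intervals given are exact 95% intervals that cover counting error only.

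No member differed by over 2-fold between the lines on the log2(FPKM + 0.1) scale. With 9 members, nothing particular to the group is read from this count. Of 12546 genes with a mean FPKM of at least 1, 11.7% were over 2-fold higher and 8.67% over 2-fold lower in the TAG/TAG library. All 9 members passed this limit. The share in either direction was 20.3%, and 12.4% of genes with a mean FPKM of at least 5, a limit that 8 of the 9 members passed. At 1.5-fold, a limit chosen after the values were seen, 1 member was higher (*Ralb*; 20.8% of all genes) and 2 were lower (*Rras2* and *Rap1b*; 18.6% of all genes). FPKM was lower in the TAG/TAG library for 5 of 9 members and for 50.2% of all genes. The median log2 difference (TAG/TAG minus TAG/+) was -0.09 over the members and -0.00 over all genes, and the median absolute difference was 0.30 and 0.44. The interval of the read ratio excluded equality for 4 members, *Hras* and *Ralb* on the higher side and *Rras2* and *Rap1b* on the lower. The same count was not made over all genes, and the intervals cover counting error only. Nothing particular to the members is therefore read from it.

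**Figure D1:**
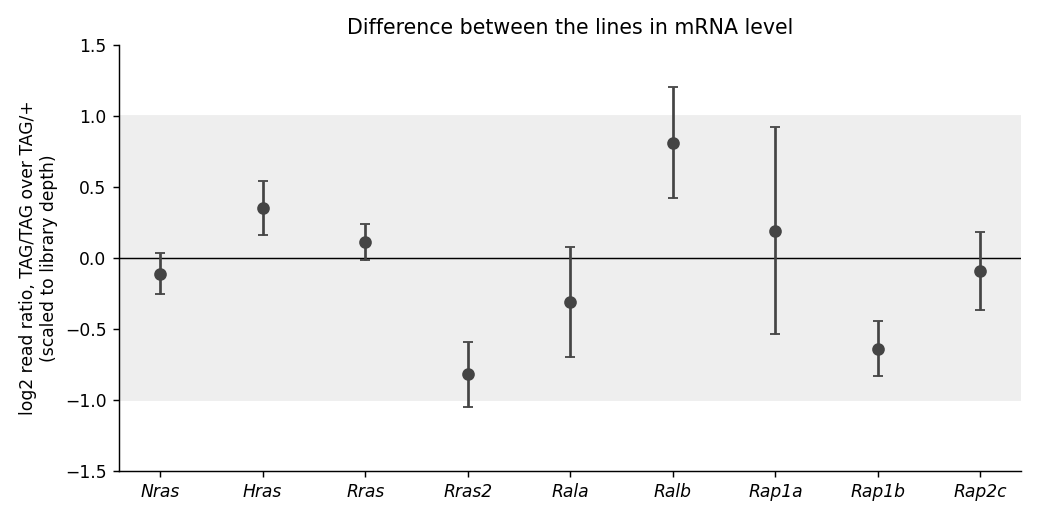
Points show the log2 ratio of reads in the TAG/TAG library over the TAG/+ library, scaled to library depth, for each of the 9 mRNAs, bars are exact 95% intervals of the read ratio, and the grey band spans 2-fold in either direction. All 9 points lie within the band, with *Rras2* and *Rap1b* lowest and *Ralb* highest, and the bars of *Rras2* and *Ralb* reach past the lower and the upper edge of the band.

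*Rras* was the most abundant member in both libraries by FPKM. It encodes R-RAS, which is known for the activation of integrins, and lies at chr7:45017961-45021647 on the plus strand. Its level was 139.7 FPKM (interval 130.8 to 149.1) from 913 reads in the TAG/+ library and 150.9 FPKM (141.9 to 160.3) from 1061 reads in the TAG/TAG library. These are the 93.6th and 94.4th percentiles of all genes. The libraries were not separated by counting error, with a log2 difference of 0.11 (-0.02 to 0.24). *Rras* alone made up 49.97% of the members' summed FPKM of 279.6 in the TAG/+ library and 54.2% of 278.2 in the TAG/TAG library.

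*Rras2* (TC21), the closest relative of *Rras*, lies at chr7:114046782-114117781 on the minus strand and had the largest absolute log2 difference between the lines, close to that of *Ralb* in the other direction. It was at 13.3 FPKM (12.02 to 14.6; 420 reads) in the TAG/+ library and 7.51 FPKM (6.62 to 8.49; 256 reads) in the TAG/TAG library. The TAG/TAG level was 1.77-fold lower, a log2 difference of -0.81 (-1.05 to -0.59).

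*Nras* and *Hras* encode classical RAS proteins that activate RAF kinases and PI3K. *Nras* (chr3:103058285-103067914, plus strand) was at 53.0 FPKM (49.4 to 56.9; 782 reads) in the TAG/+ library and 49.0 FPKM (45.6 to 52.6; 778 reads) in the TAG/TAG library. Its log2 difference of -0.11 (-0.26 to 0.03) was within counting error. *Hras* (chr7:141189105-141194005, minus strand) was at 23.8 FPKM (21.5 to 26.3; 395 reads) and 30.4 FPKM (27.9 to 33.0; 542 reads), 1.28-fold higher in the TAG/TAG library (log2 difference 0.35, 0.16 to 0.54).

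*Rala* and *Ralb* encode the RAL proteins, which bind the exocyst subunits SEC5 and EXO84. *Rala* (chr13:17880571-17944239, minus strand) was at 6.68 FPKM (5.55 to 7.98; 122 reads) in the TAG/+ library and 5.40 FPKM (4.42 to 6.53; 106 reads) in the TAG/TAG library, a log2 difference of -0.30 (-0.70 to 0.08). *Ralb* (chr1:119470305-119504794, minus strand) was at 4.13 FPKM (3.30 to 5.11; 85 reads) and 7.23 FPKM (6.16 to 8.44; 160 reads). Its level was 1.75-fold higher in the TAG/TAG library (log2 difference 0.79, 0.42 to 1.204), the opposite side from *Rala*.

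*Rap1a* and *Rap1b* encode nearly identical RAP1 proteins, which bind RIAM and RAPL in integrin activation. *Rap1b* (chr10:117813871-117846035, minus strand) was at 31.1 FPKM (28.6 to 33.9; 543 reads) in the TAG/+ library and 19.98 FPKM (18.01 to 22.1; 375 reads) in the TAG/TAG library. This was 1.56-fold lower in the latter, with a log2 difference of -0.64 (-0.83 to -0.45). *Rap1a* (chr3:105727267-105801336, minus strand) was the lowest member in both libraries, at 2.24 FPKM (1.52 to 3.18) from 31 reads and 2.55 FPKM (1.80 to 3.50) from 38 reads. With so few reads the interval of its log2 difference ran from -0.53 to 0.92. Counting error thus did not exclude a level up to nearly 2-fold higher in the TAG/TAG library, or a smaller difference on the lower side. *Rap1a* is also the member with the least unique sequence, since 72.8% of its exonic 50-mers (stretches as long as a read) occur once in the genome and 8.27% of its transcript 50-mers are shared with the transcripts of *Gm9392* and *Rap1a-ps2*, so its level is uncertain. The other 8 members had 96.3% to 100% unique exonic 50-mers.

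*Rap2c* encodes a RAP2 protein, a subfamily that binds the kinases TNIK, MINK1 and MAP4K4. It lies at chrX:51003912-51018018 on the minus strand and was at 5.61 FPKM (4.89 to 6.41; 217 reads) in the TAG/+ library and 5.26 FPKM (4.59 to 6.01; 219 reads) in the TAG/TAG library. Its log2 difference was -0.09 (-0.37 to 0.19).

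By FPKM the members ranked *Rras*, *Nras*, *Rap1b*, *Hras*, *Rras2*, *Rala*, *Rap2c*, *Ralb* and *Rap1a* in the TAG/+ library. In the TAG/TAG library *Hras* stood above *Rap1b*, and *Ralb* above *Rala* and *Rap2c*. Neighbours that counting error did not separate were *Rala* and *Rap2c* in both libraries and *Rras2* and *Ralb* in the TAG/TAG library. The order depends on the length that FPKM is divided by. The deposited FPKM match division by the mean length of all annotated transcripts of a gene, which is 1352 bases for *Nras* over 9 transcripts of 276 to 4470 bases, while the principal transcript of *Nras*, the main coding one named by APPRIS, has 4470. Per length of the principal transcript, *Nras* was at 16.04 FPKM in the TAG/+ library and 14.8 in the TAG/TAG library, and stood at the fourth and the third place in place of the second. *Rras* kept the first place at 84.1 and 90.8 FPKM, and *Rap1a* the last at 1.18 and 1.34. Differences of a gene between the lines do not change with the length.

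**Figure D2:**
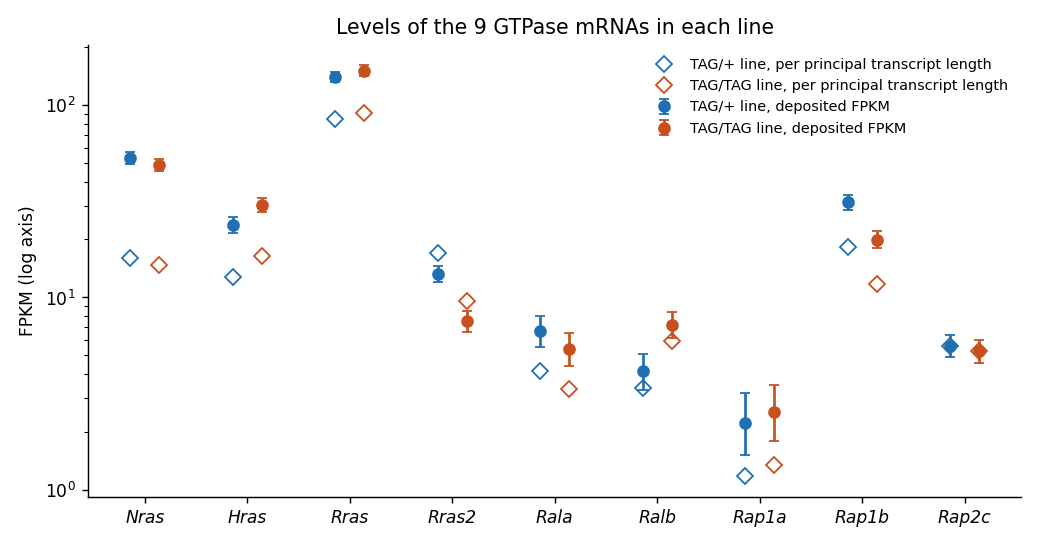
Filled circles show the deposited FPKM of each of the 9 mRNAs on a log axis in the TAG/+ library (blue) and the TAG/TAG library (orange) with exact 95% Poisson intervals, and open diamonds the same reads per length of the principal transcript. *Rras* is highest at 139.7 and 150.9 FPKM and *Rap1a* lowest at 2.24 and 2.55 FPKM, and the diamonds of *Nras* stand 3.31-fold below its circles.

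Within the pairs of paralogs, *Rras* was more abundant than *Rras2*, and *Rap1b* than *Rap1a*, beyond counting error. *Rras* was 10.5-fold (9.38 to 11.9) above *Rras2* in the TAG/+ library and 20.1-fold (17.5 to 23.1) in the TAG/TAG library by FPKM. Per length of the principal transcript the same ratios were 4.97-fold and 9.48-fold. *Rap1b* was 13.9-fold (9.68 to 20.7) above *Rap1a* in the TAG/+ library and 7.84-fold (5.60 to 11.2) in the TAG/TAG library, and 15.5-fold and 8.72-fold per length of the principal transcript. In both pairs the same member was the higher in both libraries and with either length. *Rap1a* rests on 31 and 38 reads and has the least unique sequence of the members, so the size of its ratio is uncertain.

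The other pairs changed with the line or the length. *Nras* was 2.23-fold (1.97 to 2.52) above *Hras* in the TAG/+ library and 1.61-fold (1.44 to 1.80) in the TAG/TAG library by FPKM. Per length of the principal transcript it was 1.25-fold (1.11 to 1.42) above *Hras* in the TAG/+ library, and in the TAG/TAG library *Hras* was 1.10-fold above *Nras* with an interval (0.985 to 1.23) that includes equality. *Rala* was 1.62-fold (1.22 to 2.16) above *Ralb* in the TAG/+ library, and *Ralb* was 1.34-fold (1.04 to 1.73) above *Rala* in the TAG/TAG library. With the principal transcript the former ratio was 1.22-fold (0.919 to 1.63), no longer separated from equality, and the latter 1.77-fold (1.38 to 2.29).

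**Figure D3:**
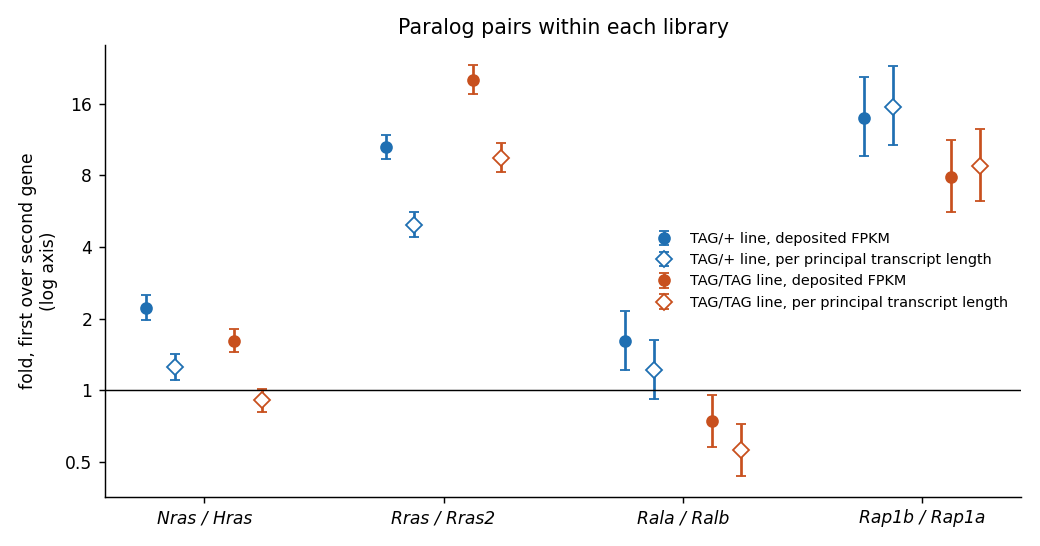
The fold of the first over the second gene of each pair is plotted on a log axis for both libraries, from deposited FPKM (circles) and per length of the principal transcript (diamonds), with exact 95% intervals of the read ratio. *Rras*/*Rras2* and *Rap1b*/*Rap1a* lie above 1 throughout, while *Rala*/*Ralb* is above 1 in the TAG/+ library and below 1 in the TAG/TAG library.

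The paralogs could be told apart by reads of 50 bases, since no pair shared a 50-mer in its annotated transcripts. The longest run of bases common to the principal transcripts was 23 for *Nras* and *Hras*, 23 for *Rras2* and *Rras*, 17 for *Rala* and *Ralb* and 20 for *Rap1b* and *Rap1a*. Over the aligned coding bases, identity was 75.9% for *Nras* and *Hras*, 69.3% for *Rras2* and *Rras*, 74.96% for *Rala* and *Ralb* and 81.6% for *Rap1b* and *Rap1a*. No exon of a member overlapped an exon of another annotated gene. The coding sequences of *Rap1a* and *Rap1b* ended 40.8% and 42.4% of codons in G or C, the 7.0th and 9.0th percentiles of annotated coding genes in the table, whereas *Rras* (70.6%) and *Ralb* (70.4%) lay at the 81.6th and 80.8th.

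The median half-life of the members was above that of all transcripts in both lines. The median over the 8 members was 276.1 min in the TAG/+ line and 259.6 min in the TAG/TAG line, against 224.1 and 225.8 min over all 5806 transcripts. Of the 8 members, 7 lay above the median of all transcripts in the TAG/+ line and 5 in the TAG/TAG line, and 5 and 6 lay between the first and the third quartile. By definition, as many of all transcripts lie between these quartiles as outside them. With 8 members, nothing particular to the group is read from these counts. The half-lives carry no error and no depth, so differences between them could not be set against an error of the fit.

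*Rras* mRNA had the longest half-life of the members, 667.1 min in the TAG/+ line and 552.5 min in the TAG/TAG line, the 98.4th and 94.9th percentiles of all transcripts. Its 3′ UTR of 283 bases is the shortest of the 9. *Rras2* mRNA had half-lives of 282.0 and 230.8 min, so that *Rras* was 2.37-fold and 2.39-fold longer-lived than its paralog, which of the 3 pairs with half-lives was the ratio that differed least between the lines.

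*Nras* mRNA had half-lives of 255.7 min in the TAG/+ line and 169.1 min in the TAG/TAG line. It moved from the 63.8th percentile to the 28.7th, while its FPKM differed by less than counting error. *Hras* mRNA had half-lives of 256.9 and 205.7 min. The paralogs thus had nearly the same half-life in the TAG/+ line, and *Hras* was 1.22-fold longer-lived in the TAG/TAG line.

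*Rala* mRNA had half-lives of 325.4 and 314.9 min, and *Rap2c* mRNA of 326.6 and 298.7 min. Both lay above the third quartile of all transcripts in the TAG/+ line (289.2 min), and *Rala* also in the TAG/TAG line (299.8 min). *Rap1a* mRNA had the shortest half-life of the members in the TAG/+ line, 195.5 min, and 183.1 min in the TAG/TAG line. *Rap1b* mRNA had half-lives of 270.2 and 288.3 min, 1.38-fold and 1.57-fold longer than those of *Rap1a*. *Rap1a* has the least unique sequence of the members, and the part of this in its half-lives and in these ratios was not tested.

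**Figure D4:**
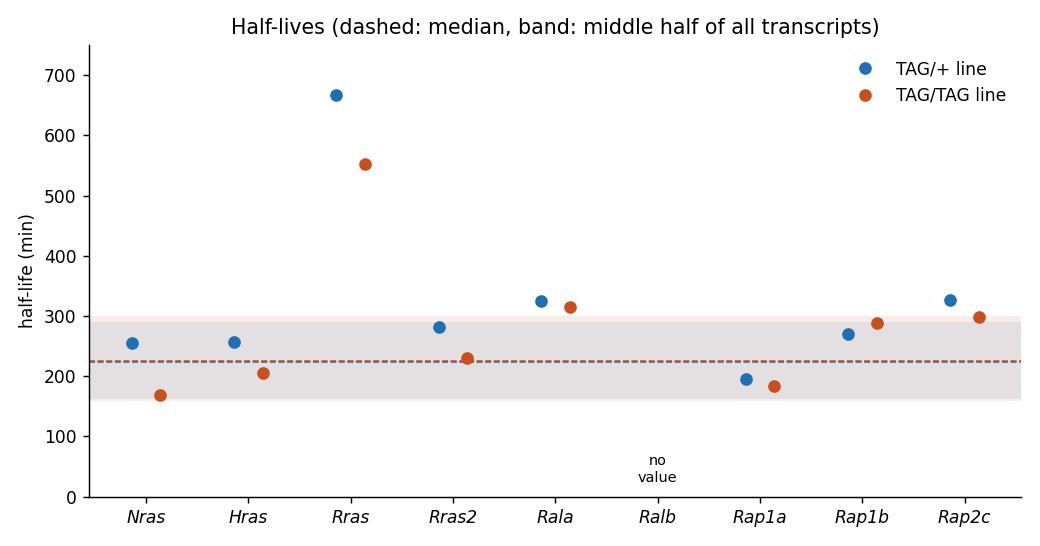
Points show the half-life in minutes of each member in the TAG/+ line (blue) and the TAG/TAG line (orange), with no error available. Dashed lines mark the medians of all transcripts (224.1 and 225.8 min) and bands their middle quartiles, and *Rras* at 667.1 and 552.5 min stands above the band in both lines while *Ralb* has no half-life.

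Between the lines, half-lives were shorter in the TAG/TAG line for 7 of the 8 members, all but *Rap1b*, and for 45.9% of all transcripts. A difference of over 1.5-fold was found for 1 member on the shorter side (*Nras*, 1.51-fold; 10.7% of all transcripts) and for 0 on the longer side (10% of all transcripts). The median log2 difference (TAG/TAG minus TAG/+) was -0.20 over the members and 0.04 over all transcripts. After *Nras*, the log2 differences were -0.32 for *Hras*, -0.29 for *Rras2* and -0.27 for *Rras*. They were -0.13 for *Rap2c*, -0.09 for *Rap1a*, -0.05 for *Rala* and 0.09 for *Rap1b*. The median absolute log2 difference was 0.20 over the members and 0.27 over all transcripts, and those of *Hras*, *Rras2* and *Rras* lay close to the latter. *Rras2* was lower in both FPKM and half-life in the TAG/TAG line, *Rap1b* was lower in FPKM with a slightly longer half-life, and *Hras* was higher in FPKM with a shorter half-life.

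The members with the searched letters had half-lives of 195.5 to 326.6 min in the TAG/+ line and 169.1 to 314.9 min in the TAG/TAG line. Those without them and with a half-life, *Rras*, *Rras2* and *Rap1b*, had 270.2 to 667.1 min and 230.8 to 552.5 min, so that the groups overlapped. Over all transcripts with an annotated 3′ UTR, the median half-life was 196.2 and 199.8 min for the 2410 with a match and 244.9 and 246.6 min for the 3378 without, and their median 3′ UTR lengths were 2098 and 755 bases. Length and match thus moved together. The pentamer AUUUA, the core of AU-rich elements that are known for promoting decay, was counted on the sense strand as well. It occurred 8 times in *Rala*, 7 in *Rap2c*, 6 in *Rap1b*, 5 in *Nras*, 4 in *Ralb*, 2 in *Rras2* and 2 in *Rap1a*, was absent from *Hras* and *Rras*, and was present in 66.6% of all 3′ UTRs. Among 3′ UTRs within 20% of its length 91.2% held it for *Hras* and 35.4% for *Rras*. *Rras*, with none, was the longest-lived member in both lines, and *Rala* and *Rap2c*, with the most copies, came next. *Hras*, also with none, had half-lives of 256.9 and 205.7 min. Over all transcripts the median half-life was 211.6 and 214.7 min for the 4180 with AUUUA. It was 257.0 and 259.5 min for the 1608 without. Median 3′ UTR lengths were 1662.5 and 407.5 bases, so length and AUUUA moved together as well.

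**Figure D5:**
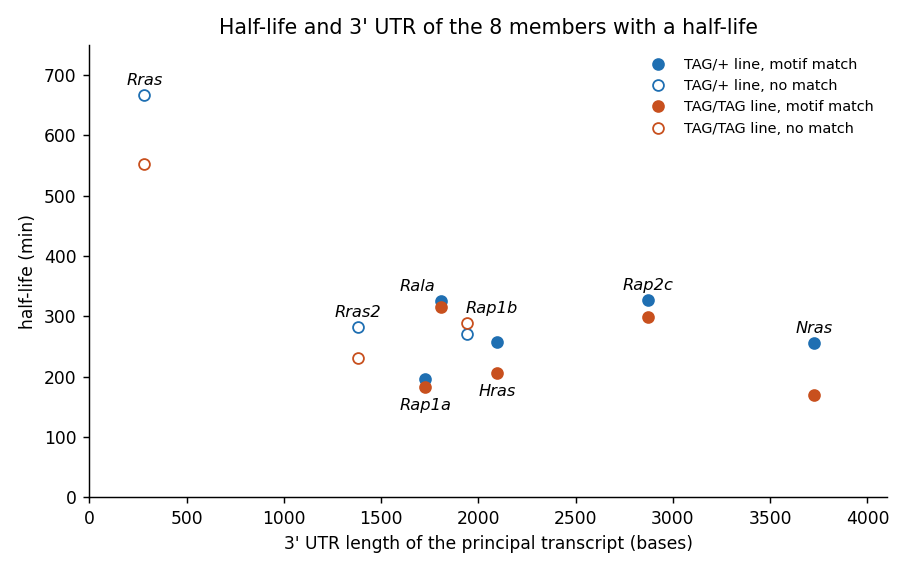
Half-life in minutes is plotted against the 3′ UTR length in bases of the principal transcript for the 8 members with a half-life in the TAG/+ line (blue) and the TAG/TAG line (orange), filled where the 3′ UTR holds a match to the searched letters. *Rras*, with 283 bases, stands at 667.1 and 552.5 min, and the others, with 1382 to 3727 bases, lie between 169.1 and 326.6 min.

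For each of the 8 members with half-lives, the gene with the most similar values was sought over FPKM and half-life in both lines, as the smallest distance over 4 log2 values, each divided by its SD, among 5144 genes. No member was nearest to its own paralog, which among so many genes is not read as a result about the paralogs. *Ralb*, without a half-life, was not compared. *Rala* and *Rap2c* were nearest to each other, at a distance of 0.157 SD. The nearest gene was *Neo1* for *Nras*, *Galnt1* for *Hras*, *Psmb3* for *Rras*, *Atp6v1h* for *Rras2*, *Gripap1* for *Rap1a* and *Klhdc10* for *Rap1b*, at distances of 0.0613 to 0.304 SD.

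The genes around these GTPases were read from lists by role. Of all genes with a mean FPKM of at least 1, 11.7% were over 2-fold higher in the TAG/TAG library and 8.67% over 2-fold lower. With so few genes per list, nothing particular to a list is read from the counts that follow. Of 22 other RAS, RAL and RAP family GTPases, 15 were listed and none was over 2-fold different, with a median log2 difference of -0.01, and *Rasl11a* (82.1 and 116.6 FPKM) and *Nkiras2* (38.1 and 41.2 FPKM) were highest. Of the receptor adaptors and RAS exchange factors, which couple receptors to RAS, 12 of 14 were listed, 1 was over 2-fold higher in the TAG/TAG library and 0 lower, and the adaptors *Frs2* (49.1 and 50.3 FPKM) and *Shc1* (46.6 and 66.3 FPKM) were highest. Of 13 RAS GTPase-activating proteins 11 had a mean FPKM of at least 1, of which 2 were over 2-fold higher and 0 lower, and *Rasal2* (60.5 and 48.3 FPKM) and *Rasa3* (54.4 and 59.7 FPKM) were highest. Of 18 RAS effectors and their kinase targets 13 passed the same limit and 0 differed by over 2-fold, and *Mapk3*, which encodes ERK1 (164.5 and 130.4 FPKM), and *Map2k2*, which encodes MEK2 (110.9 and 119.3 FPKM), were highest.

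On the RAL side, 8 of 9 exchange factors and GTPase-activating proteins were listed and 1 was over 2-fold higher. *Ralgds*, a RAL exchange factor that binds RAS (106.6 and 149.1 FPKM), and *Ralgapb*, a subunit of the RAL GTPase-activating complexes (60.5 and 60.2 FPKM), were highest. Of 12 RAL effectors 11 were listed and 0 differed by over 2-fold, and *Flna*, which encodes the actin crosslinker filamin A (132.0 and 146.1 FPKM), and *Ybx3* (93.2 and 85.2 FPKM) were highest. Of the 8 RAL effectors with half-lives, 4 were over 1.5-fold shorter-lived in the TAG/TAG line (10.7% of all transcripts) and 0 longer (10%), with list medians of 227.2 and 177.1 min. This was the largest such count of the lists by role, so nothing particular to RAL effectors is read from it. It was 2 of 5 RAP effectors, 2 of 8 RAP exchange factors and GTPase-activating proteins, 1 of 11 RAS effectors and 0 of 8 lipid enzymes. It was 1 of 8 other RAS, RAL and RAP family GTPases, 1 of 9 RAS GTPase-activating proteins, 1 of 7 RAL exchange factors and GTPase-activating proteins and 0 of 6 receptor adaptors and RAS exchange factors. On the longer side it was 2 of 8 other family GTPases, 2 of 6 receptor adaptors and RAS exchange factors and 2 of 7 RAL exchange factors and GTPase-activating proteins. The remaining role lists had 0 on the longer side.

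On the RAP side, of 14 RAP exchange factors and GTPase-activating proteins 12 had a mean FPKM of at least 1, of which 2 were over 2-fold higher in the TAG/TAG library and 0 lower, with a median log2 difference of 0.42. Over all genes 11.7% were over 2-fold higher and the median was -0.00, and nothing particular to a list is read from these counts. *Rapgef3*, the cAMP-activated exchange factor EPAC1, was at 2.97 and 16.3 FPKM, 5.51-fold higher in the TAG/TAG library. *Rap1gap2*, a RAP GTPase-activating protein, was at 3.54 and 9.15 FPKM, 2.58-fold higher. The most abundant were the RAP GTPase-activating proteins *Sipa1l1* (230.0 and 243.6 FPKM) and *Sipa1l3* (68.9 and 79.9 FPKM). Of 10 RAP effectors 7 passed the limit, of which 2 were over 2-fold higher, 0 lower, and 1 lower by any amount, with a median of 0.73. Among them the RAP2-binding kinases were all higher in the TAG/TAG library, *Tnik* with 3.59 and 8.34 FPKM (2.32-fold), *Map4k4* with 98.4 and 173.8 FPKM (1.77-fold) and *Mink1* with 157.1 and 199.2 FPKM (1.27-fold), beside a *Rap2c* level of 5.61 and 5.26 FPKM. The summed fibroblast and somatic markers were higher in the same library, and their part in these values was not tested.

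Of 14 enzymes of lipid modification and trafficking, which attach or remove the lipid anchors of RAS family proteins and move or deubiquitinate them, 11 were listed and 0 differed by over 2-fold. *Golga7*, a subunit of a RAS palmitoyltransferase (87.0 and 77.5 FPKM), and the deubiquitinase *Usp9x* (82.0 and 65.9 FPKM) were highest.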

How the data were processed

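The authors deposited FPKM values for 1 RNA-seq library per line, and the submitters' processing notes name kallisto and DESeq2 without versions; the annotation is not given in the sources used here. The authors' half-lives, in minutes and with no other unit, are first-order decay fits (nls) of SlamDunk conversion rates over 6 chase times (0 to 1440 min) after 2 technical replicates were collapsed, and were used as deposited. From the FPKM, reads were recovered with the mean length of annotated GENCODE M21 transcripts, which gave whole reads (within 0.01) for 100% of 13884 genes; the FPKM were scaled to 10908790 (TAG/+) and 11738620 (TAG/TAG) reads. Log2 differences used a pseudocount of 0.1, and counts of genes a mean FPKM of at least 1. Poisson and Clopper-Pearson 95% intervals cover counting error only, and are approximate where the reads are rounded kallisto estimates. The members and lists were chosen with earlier results of these data known. Named were all 9 members, the 2 most abundant genes of each role list, any role-list gene over 2-fold different with a mean FPKM of at least 5, the nearest gene of each member and *Nanos2*; of the marker lists, counts and a few genes are given. The labels and the methods differ on sorting and reagent. The 4 CRAC libraries were not analysed here. Gene models and 3′ UTRs (APPRIS principal transcript, otherwise the longest 3′ UTR) were read from GRCm38 with GENCODE M21. Scripts used Python, numpy, pandas, scipy, Biopython and matplotlib, and were tested on simulated data.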

Additional observations from a re-analysis of the deposited data

How the results depend on the processing

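With 1 library and 1 set of half-lives per line, no result has a replicate check, and *Rap1a*, with 31 and 38 reads, is the least precise level. No paired analysis was possible because each line has 1 library and no result comes from a test. Settings varied for FPKM were pseudocounts of 0.1 and 1, centring on all genes and rescaling to the same sum. For half-lives they were a limit of 540 min and division by the median of a line. None of these moved a result on the members past the spread used to judge it. For the members' median log2 FPKM difference that spread was the typical counting error of a single member, larger than the difference itself. This median was -0.09, and -0.01 after rescaling to the same sum, so the check says little about it. The share of all genes over 2-fold different was 20.3% and became 12.4% at a mean FPKM of at least 5. Of the members, 0 differed by over 2-fold and 3 by over 1.5-fold. The mean log2 FPKM difference of *Rala* over *Ralb* was 0.13, and -0.42 in the TAG/TAG line alone. Dividing by the length of the principal transcript, chosen after seeing the data, gave -0.26 for *Rala* over *Ralb*, 0.092 in place of 0.92 for *Nras* over *Hras*, and -2.77 in place of -3.85 for *Rras2* over *Rras*.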
